A study of Mus musculus with 8 samples.

Results

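The transcripts of 10 genes that process and package peptide hormones were followed in the hypothalamus of mice that gained much or little weight on the same diets. They are the prohormone convertases Pcsk1 and Pcsk2, the convertase inhibitor Pcsk1n, the chaperone Scg5, the trimming and amidating enzymes Cpe and Pam, and the granins Chga, Chgb, Scg2 and Scg3. They were taken by name, through the annotation of the array, from features that name exactly 1 gene. Of the 10 genes, 9 had such a feature, with 1 feature each, and all 9 had a value on each of the 7 arrays compared. No value is given for Pcsk2, for which the annotation used here named no feature. The whole series holds 33012 features, 13840 genes have a feature that names only them, and 11169 features had a value on all 7 arrays.

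All mice were adult males of the inbred strain C57BL/6J, and no transgene, deletion or drug is named for either group. High gainers and low gainers went through 1 diet course, namely 6 weeks on a high-fat diet, 2 weeks on a low-fat chow that the study's methods describe as restricted, and 6 more weeks on the high-fat diet, and they were told apart by weight gain. RNA of 20 high gainers made 1 pool and RNA of 20 low gainers made the other, and each pool was measured on 4 arrays (high gainer arrays 1 to 4 and low gainer arrays 1 to 4). Replicate arrays therefore show the spread of the assay on 1 pool, and every test below compares 1 pool with 1 pool without any measure of the spread between mice.

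Peptide hormones and neuropeptides are made as long precursors that enter the regulated secretory pathway. Inside dense-core vesicles, convertases cut the precursor after pairs of basic residues, carboxypeptidase E trims the exposed basic residues, and peptidylglycine alpha-amidating monooxygenase (PAM) converts a C-terminal glycine into an amide. Granins are acidic proteins stored in the same vesicles, where they aid packaging and are themselves cut into peptides. In the hypothalamus this machinery matures melanocortin, enkephalin, vasopressin and many other peptides, and obesity is known to accompany loss of Cpe in the fat mouse and loss of PCSK1 in humans.

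Several of these genes are known to share a proximal cAMP response element (CRE), the palindrome TGACGTCA or a close variant bound by factors of the CREB family. Of the 9 listed genes in the RefSeq promoter table (assembly GRCm38.p6), 3 had the palindrome in the 250 bases before the start, namely Pcsk1, Scg2 and Chgb. The palindrome was present in 1.55% of all 32851 promoters of that length. By gene, counting any promoter of the gene, it was present in 1.77% of 27025 genes. The shorter TGACGT, read on both strands and contained in each palindrome, was found in 5 of the 9 genes. It was found in 7.29% of all genes counted in this way and in 6.47% of all promoters. The stretches from 100 to 21 bases before the start are shown for the 4 genes that hold these letters there, 5′ to 3′ on the strand of the gene, with TGACGTCA or TGACGT in capitals. They are shown because a convertase and 3 granins share these letters close to the start, which is a description of sequence and not of binding.
Pcsk1, chr13:75089757-75089836, plus strand: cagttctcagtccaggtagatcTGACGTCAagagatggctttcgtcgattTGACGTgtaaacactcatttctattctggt
Scg2, chr1:79440047-79440126, minus strand: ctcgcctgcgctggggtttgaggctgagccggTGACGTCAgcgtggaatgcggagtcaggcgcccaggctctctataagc
Chgb, chr2:132781542-132781621, plus strand: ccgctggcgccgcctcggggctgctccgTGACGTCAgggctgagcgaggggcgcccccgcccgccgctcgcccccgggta
Chga, chr12:102554841-102554920, plus strand: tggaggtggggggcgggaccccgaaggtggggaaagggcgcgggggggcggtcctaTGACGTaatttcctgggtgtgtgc
The palindrome began 78 bases before the start in Pcsk1, 68 in Scg2 and 72 in Chgb, and the TGACGT of Chga began 44 bases before it. The remaining gene with TGACGT, Scg5, had it farther upstream than the stretch shown.

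Low gainer array 2 stood apart from the other 7 arrays and was kept out of the comparison. Across features with a value on all 8 arrays, its log2 intensities correlated with those of the other arrays at r between 0.227 and 0.241, while each of the other arrays correlated with its peers at a median r of at least 0.962. The genes described here lay on both sides of their usual values on it. Scg2 had an intensity of 129.7 on low gainer array 2 and a median of 9.28 on the other 7 arrays. Scg5 had 0.837 on low gainer array 2 and a median of 24.2 on the others, and Chga had 2.97 on low gainer array 2 and a median of 41.7 on the others. Chgb had 68.3 on low gainer array 2 and a median of 32.5 elsewhere, and Pam, with 2.76 on low gainer array 2, lay within the range of the other arrays. Cpe, Pcsk1n, Scg3 and Pcsk1 had no value on it, although Cpe lay at or above percentile 99.92 on each of the other arrays. With all 8 arrays, 5 of the genes could be fitted, at log2 differences of 1.19 for Chga, 0.86 for Scg5, 0.63 for Pam, -0.10 for Chgb and -0.73 for Scg2. For Scg5, Chgb and Scg2 these directions are opposite to those without this array, with adjusted p-values of 0.717 to 0.902 by limma.

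All intensities below are the deposited normalized values on a linear scale. Each percentile is the place of a feature among all features with a value on that array. Features of different genes bind RNA with different strength, so the percentiles describe brightness and not the order of transcript levels. Cpe lay between percentiles 99.92 and 99.99, Pcsk1n between 99.04 and 99.71, Chga between 97.3 and 98.6 and Chgb between 96.95 and 98.08 across the 7 arrays. Scg5, Scg3 and Scg2 lay between percentiles 83.2 and 97.4. Pam ranged from percentile 27.3 to 85.4, and Pcsk1 from 3.62 to 37.3. Of 14 peptides of hypothalamic neurons, 12 had a feature and 9 had a value on all 7 arrays, while Ghrh had none on any of them. Those 9 all had log2 differences (high minus low gainer) below 0, with a median of -0.27, where 5627 of 11169 features lay below 0. Pomc, with a value on 5 of the 7 arrays, was not among these 9 and lay the other way. It had 0.735 to 1.48 on high gainer arrays 1 to 4, against 0.208 on low gainer array 4. By limma 0 of the 9 were called, where 0.0269% of all features were, and 2 had an unadjusted p under 0.05, where 6.48% of all features did.

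**Figure D1:**
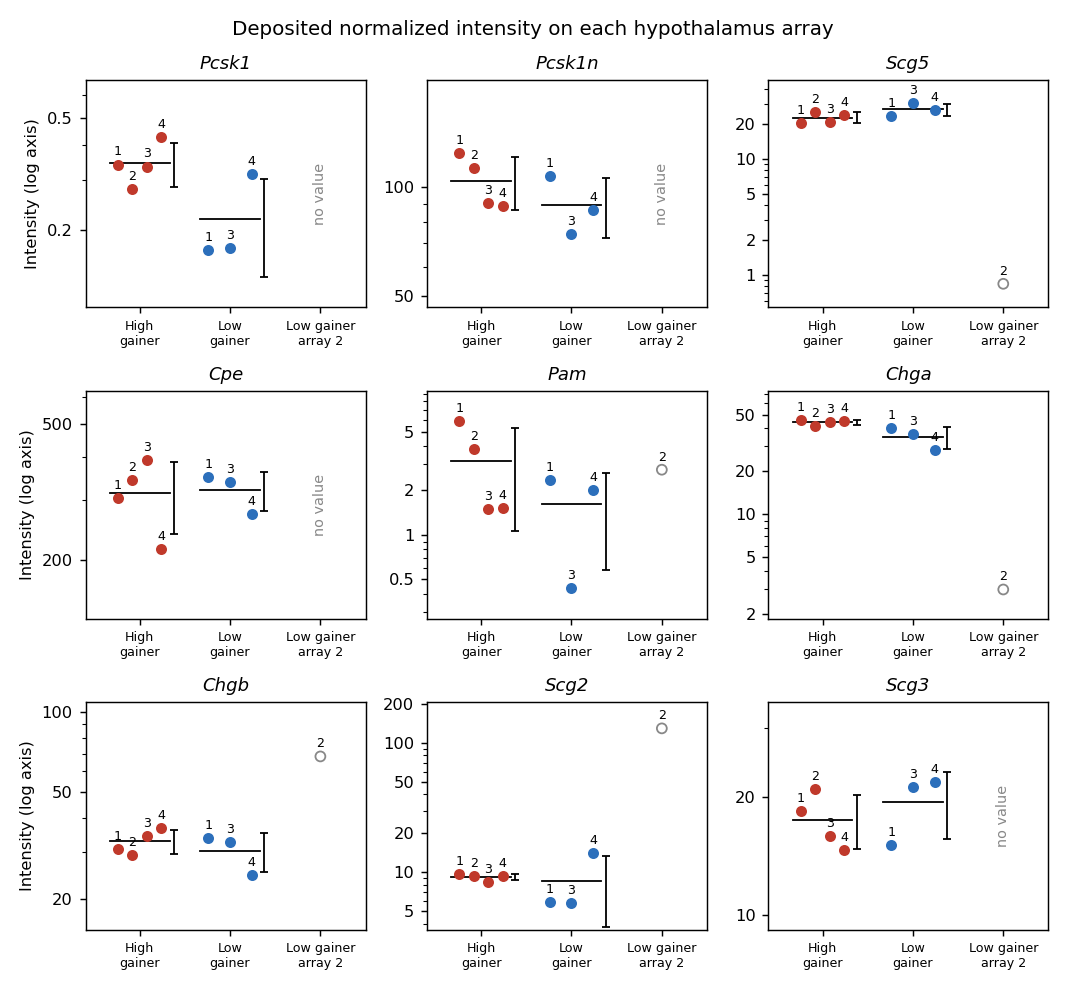
Deposited normalized intensity (log axis) of 9 genes on high gainer arrays 1 to 4 (red), low gainer arrays 1, 3 and 4 (blue) and low gainer array 2 (open grey), with the array number beside each point. Lines are means and bars are 1 SD of the red and blue points (n = 4 and n = 3), and only the Chga panel has every red point (41.7 to 45.8) above every blue point (28.3 to 40.0).

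To ask whether the processing machinery differed between high and low gainers, the pools were compared feature by feature. No gene of the group passed the test. Of 9 genes tested, 0 were called at an adjusted p of 0.05 by limma, where 0.0269% of all 11169 features were called, and 1 of the 9, Chga, had an unadjusted p under 0.05, where 6.48% of all features did. The methods' t-test was run on the same values without the methods' detection filter. After adjustment it likewise called 0 of the 9 and 0 of all 11169 features. At an unadjusted p under 0.05 it gave 1 of the 9, against 477 of all 11169 features. Of the 9 log2 differences (high minus low gainer), 6 were above 0 and 3 below, with a median of 0.16 against -0.0024 over all features. The adjusted p by limma ran from 0.750 for Chga to 0.935 for Scg3. None of the 18 alternative analyses called any of the genes, and the smallest adjusted p among them was 0.0822, for Chga without low gainer array 1.

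**Figure D2:**
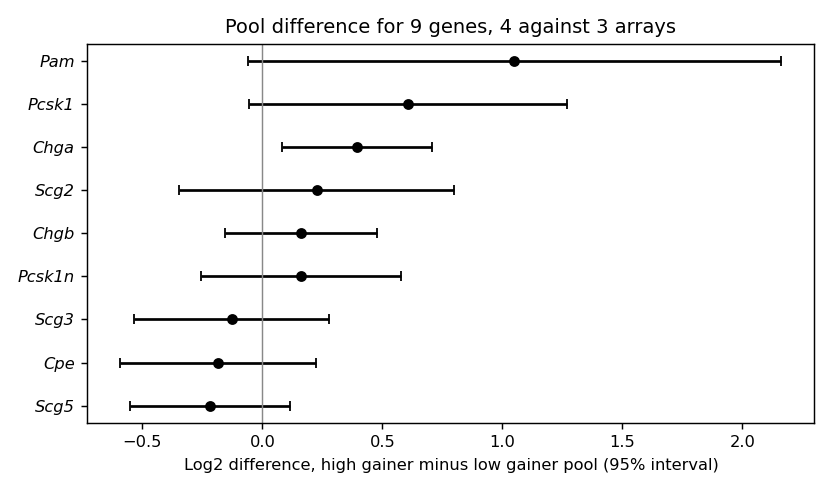
Log2 difference between the high gainer pool (4 arrays) and the low gainer pool (3 arrays) for 9 genes, with bars for the 95% interval of limma. The interval of Chga runs from 0.08 to 0.71, and each of the other intervals includes 0.

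The convertase Pcsk1, which makes the first cuts in pro-opiomelanocortin and many other precursors, had a dim feature. Its intensity was 0.340, 0.279, 0.335 and 0.426 on high gainer arrays 1 to 4, against 0.169, 0.173 and 0.315 on low gainer arrays 1, 3 and 4. The pools overlapped because low gainer array 4 lay above high gainer array 2. High over low gainers gave a fold of 1.52, with a 95% interval from 0.963 to 2.41, an adjusted p of 0.776 by limma and an exact two-sided permutation p of 0.143. The log2 difference was 0.61, and 0.35 with a pseudocount, since these values lie close to the 10th percentile of all intensities, 0.186. Without low gainer array 4 it was 0.88 and the pools no longer overlapped, with an adjusted p of 0.402 by limma.

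Pcsk1n encodes proSAAS, a precursor that is cut into peptides and inhibits the convertase made by Pcsk1. Its intensity was 124.1, 113.1, 90.5 and 88.5 on high gainer arrays 1 to 4, and 107.4, 74.2 and 86.2 on low gainer arrays 1, 3 and 4. Within the high gainer pool it varied 1.40-fold, more than the ratio of the pool means, 1.17. The fitted fold of high over low gainers was 1.12, with a 95% interval from 0.837 to 1.49. Taken as a ratio on each array, Pcsk1 over Pcsk1n differed by 0.48 on the log2 scale between high and low gainers, with values around the 7-array mean of -0.22 to 0.74 for high gainers and -0.87 to 0.35 for low gainers. These ranges overlapped, and the ratio, chosen after the values were seen, was not tested.

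Scg5, which encodes the 7B2 protein that helps the convertase of Pcsk2 to fold and keeps it inactive until the vesicle, was the gene of this group with the lowest difference. It had 20.4, 25.5, 20.8 and 24.2 on high gainer arrays 1 to 4, and 23.6, 30.2 and 26.5 on low gainer arrays 1, 3 and 4. High gainer arrays 2 and 4 lay above low gainer array 1. For high over low gainers the fold was 0.859, with a 95% interval from 0.682 to 1.08 and an adjusted p of 0.850 by limma.

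Cpe, carboxypeptidase E, had the brightest feature of the group. It had 303.6, 344.3, 391.8 and 215.5 on high gainer arrays 1 to 4, against 351.1, 339.4 and 272.5 on low gainer arrays 1, 3 and 4. High gainer arrays held both the highest and the lowest of these values. Deposited intensities averaged 313.8 ± 74.8 (SD, n = 4) in high gainers and 321.0 ± 42.4 (SD, n = 3) in low gainers. The ratio of these means was 0.978 and the fitted fold was 0.880, with a 95% interval from 0.663 to 1.17. The fit uses values normalized again by quantiles, and for this feature at the top of the range that step changed the order of arrays. Low gainer array 4 had the lowest deposited Cpe of its pool but the highest log2 value after normalization, 8.72, against 8.28 and 8.21 on low gainer arrays 1 and 3. The log2 difference was -0.18 after quantile normalization and -0.06 on the deposited values.

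Pam, the amidating enzyme, had the largest difference of the group and also the largest spread. It had 5.89, 3.81, 1.49 and 1.52 on high gainer arrays 1 to 4, and 2.36, 0.434 and 2.02 on low gainer arrays 1, 3 and 4. High gainer arrays 3 and 4 lay below low gainer arrays 1 and 4. The highest value was 3.95 times the lowest among high gainer arrays, and 5.44 times the lowest among low gainer arrays, although the arrays of a pool carried the same RNA. The fold of high over low gainers was 2.07, with a 95% interval from 0.958 to 4.48, an adjusted p of 0.758 by limma and an exact two-sided permutation p of 0.286. The log2 difference was 1.05, 0.34 without low gainer array 3 and 0.68 without high gainer array 1. The residual SD of Pam between arrays of a pool, 1.09 on the log2 scale, was the 6th highest of 11169 features. The features closest to Pam over the 7 arrays, looked up after its values were seen, were those of the chromatin remodeller Smarca5, the cullin Cul5 and the dynamin Dnm3. Smarca5 had 3.25, 2.61, 1.17 and 1.05 on high gainer arrays 1 to 4, and 1.87, 0.334 and 1.68 on low gainer arrays 1, 3 and 4. Both features were thus highest on high gainer array 1 and lowest on low gainer array 3. Cul5 was likewise highest on high gainer array 1 (2.37) and lowest on low gainer array 3 (0.308). Dnm3 was also lowest on low gainer array 3 (0.197) but highest on high gainer array 2 (1.38).

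Among the granins, Chga was the 1 gene whose pools did not overlap. Chromogranin A had 45.8, 41.7, 44.5 and 45.1 on high gainer arrays 1 to 4, and 40.0, 36.4 and 28.3 on low gainer arrays 1, 3 and 4. The high gainer values lay within 1.10-fold of each other and the low gainer values within 1.42-fold. Means were 44.3 ± 1.80 (SD, n = 4) in high gainers and 34.9 ± 6.01 (SD, n = 3) in low gainers. The fold of high over low gainers was 1.31, with a 95% interval from 1.06 to 1.63. Its adjusted p by limma was 0.750, and the exact two-sided permutation p was 0.0286, the smallest that 4 against 3 arrays can give. Of the 9 genes, 1 had non-overlapping pools, whereas 2.07% of the 11169 features had every high gainer array above every low gainer array and 2.70% had every high gainer array below. The gap between the closest arrays, 41.7 on high gainer array 2 and 40.0 on low gainer array 1, was small. After median centring of each array the pools of Chga overlapped, and its log2 difference was 0.34 (adjusted p 0.889 by limma). Across all alternatives without low gainer array 2 the log2 difference lay between 0.31 and 0.51.

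Chgb, chromogranin B, had 30.6, 29.2, 34.4 and 36.8 on high gainer arrays 1 to 4, against 33.6, 32.5 and 24.5 on low gainer arrays 1, 3 and 4. Only low gainer array 4 lay below all high gainer arrays. The fold was 1.12 for high over low gainers, with a 95% interval from 0.898 to 1.39. Chga and Chgb had the smallest residual SD of the 9 genes, 0.13 and 0.14 on the log2 scale, and the narrowest intervals. The log2 ratio of Chga over Chgb on each array, centred on 7 arrays, ran from -0.05 to 0.24 in high gainers and from -0.18 to -0.09 in low gainers, a ratio chosen after the values were seen and not tested.

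Secretogranin II (Scg2), the precursor of secretoneurin, was steady in high gainers and split in low gainers. It had 9.63, 9.28, 8.42 and 9.42 on high gainer arrays 1 to 4, and 5.87, 5.74 and 14.1 on low gainer arrays 1, 3 and 4. All high gainer arrays lay above low gainer arrays 1 and 3 and below low gainer array 4. The pools gave a fold of 1.17, high over low gainers, with a 95% interval from 0.786 to 1.74 and an adjusted p of 0.916 by limma. The log2 difference was 0.23, 0.68 without low gainer array 4 and -0.014 without low gainer array 3, so that its size and direction rested on single arrays.

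Secretogranin III (Scg3), which binds Chga and helps to sort it into vesicles, had 18.4, 20.9, 15.9 and 14.6 on high gainer arrays 1 to 4, and 15.0, 21.2 and 21.8 on low gainer arrays 1, 3 and 4. High gainer array 4 was the lowest of the 7 and low gainer array 4 the highest, and the other arrays of both pools were mixed between them. The fold of high over low gainers was 0.915, with a 95% interval from 0.690 to 1.21. Without low gainer array 4 the log2 difference was 0.013.

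Read array by array after the second, quantile normalization, the genes of the group did not move as 1 block. On high gainer array 1, 7 of the 9 genes lay above their own mean over 7 arrays, while on high gainer array 3 only 3 did. On low gainer array 3, 7 of 9 lay below their mean, and on low gainer array 4, 6 of 9 lay above it. Low gainer array 4 held the highest normalized values of Scg2, Scg3, Scg5 and Cpe and the lowest of Chga and Chgb. On the deposited values this held for Scg2, Scg3, Chga and Chgb only. Deposited Scg5 was highest on low gainer array 3 (30.2, against 26.5 on low gainer array 4). Deposited Cpe was highest on high gainer array 3 (391.8, against 272.5 on low gainer array 4). The median deviation of the 9 genes was 0.19, 0.13, -0.03 and -0.06 on high gainer arrays 1 to 4, against -0.02, -0.28 and 0.21 on low gainer arrays 1, 3 and 4. On these normalized values the highest and the lowest of the medians belonged to arrays of the low gainer pool. The order of arrays can differ on the deposited values, as for Cpe and Scg5, so these counts and medians describe the normalized values only.

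**Figure D3:**
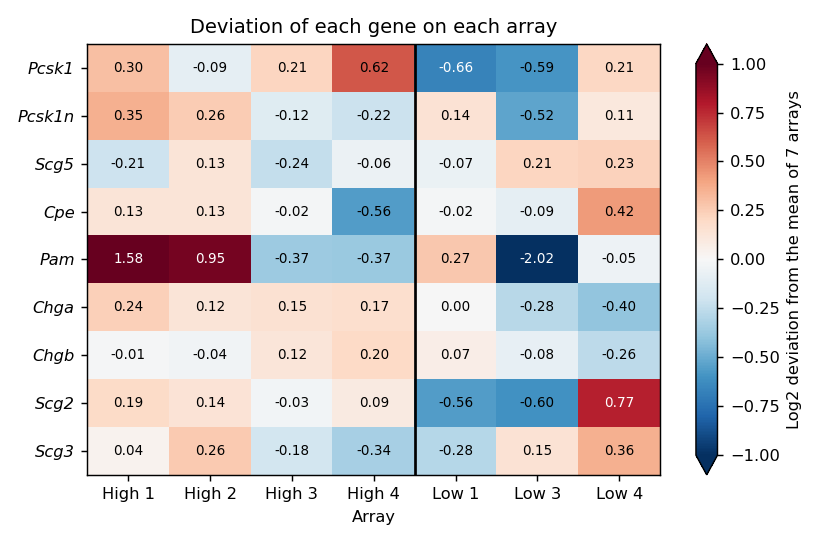
Log2 deviation of 9 genes from their own mean over 7 arrays after quantile normalization, with high gainer arrays left and low gainer arrays right of the black line; colours end at 1 on either side. The largest deviations are those of Pam, 1.58 on high gainer array 1 and -2.02 on low gainer array 3.

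By a likeness measure over all named features, the root mean square distance between mean-centred log2 profiles on the 7 arrays, the genes closest to Pcsk1 were Pcid2 at 0.184, the cAMP-regulated exchange factor Rapgef3 at 0.193 and the potassium channel Kcnj8 at 0.219. The median distance of Pcsk1 to 6331 other named features was 0.502. Like Pcsk1, all 3 had their lowest values on low gainer arrays 1 and 3. With 7 arrays of 2 pools such distances are a description only.

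Other enzymes of precursor processing behaved like the group in having no call. Of 20 such genes, 12 had a feature and 9 were tested. By limma 0 passed in either direction and 0 had an unadjusted p under 0.05, where 0.0269% and 6.48% of all features did. Their median log2 difference was 0.17. Cpd, a carboxypeptidase of the trans-Golgi that can act beside Cpe, had a log2 difference of 0.58 (95% interval -0.12 to 1.29, high minus low gainer). Furin, the ubiquitous convertase of the Golgi, had a fold of 1.20, Qpctl, which forms pyroglutamate, a fold of 1.22, and the cysteine protease Ctsl a fold of 0.835. Their adjusted p by limma lay between 0.793 and 0.909.

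Of 31 genes of dense-core vesicles, 22 had a feature and 13 were tested. By limma 0 of these passed and 0 had an unadjusted p under 0.05, where 0.0269% and 6.48% of all features did. Their median log2 difference was 0.11, and 10 of the 13 lay above 0, where 5542 of 11169 features did. Slc18a2, the vesicular monoamine transporter, had a fold of 1.43, high over low gainer, with a 95% interval from 0.971 to 2.10, and Hid1, which acts in vesicle maturation, had a fold of 1.18. Rab3a, a GTPase of secretory vesicles, had a fold of 0.836, and Rab2a, whose counterpart in the worm C. elegans takes part in dense-core vesicle maturation, a fold of 1.09. Adjusted p-values of these 4 ran from 0.767 to 0.923 by limma. The vesicle granin Vgf had no feature naming 1 gene.

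The precursors on which these enzymes act lay on the other side of 0 for the most part. Of 40 neuropeptide precursors, 33 had a feature and 21 were tested, 0 passed by limma, 6 were above 0 and 15 below, and the median log2 difference was -0.14. Over all features the split was even, with 5542 above 0 and 5627 below. At an unadjusted p under 0.05, 1 precursor was higher and 4 were lower in high gainers, 5 of 21, where 6.48% of all features had such a p (343 higher and 381 lower of 11169). The difference between the precursors and the processing genes was not tested. Among the 4 precursors with the smallest p, the opioid precursor Penk had a fold of 1.39, while Nts, Cck and Npy had folds of 0.599, 0.750 and 0.671 for high against low gainers, and the 4 adjusted p-values by limma were 0.750 to 0.752. Peptidases that break peptides down had a median of 0.07 over 10 tested of 22 genes. By limma 0 of the 10 were called and 1 had an unadjusted p under 0.05, where 0.0269% and 6.48% of all features did. That gene was Dpp6, a catalytically inactive relative of dipeptidyl peptidases that serves potassium channels. Its tested feature had a fold of 2.11 and an adjusted p of 0.750 by limma, with 3.31, 2.90, 3.45 and 3.29 on high gainer arrays 1 to 4 and 3.13, 1.03 and 1.05 on low gainer arrays 1, 3 and 4. A dimmer feature of Dpp6 had 0.36, 0.34, 0.21 and 0.17 on high gainer arrays 1 to 4. On low gainer arrays 1 and 4 it had 0.27 and 0.15, with no value on low gainer array 3, so its pools overlapped. Enpep, Thop1 and Dpp9 had folds of 0.807, 1.34 and 1.23, with adjusted p by limma of 0.793 to 0.823.

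**Figure D4:**
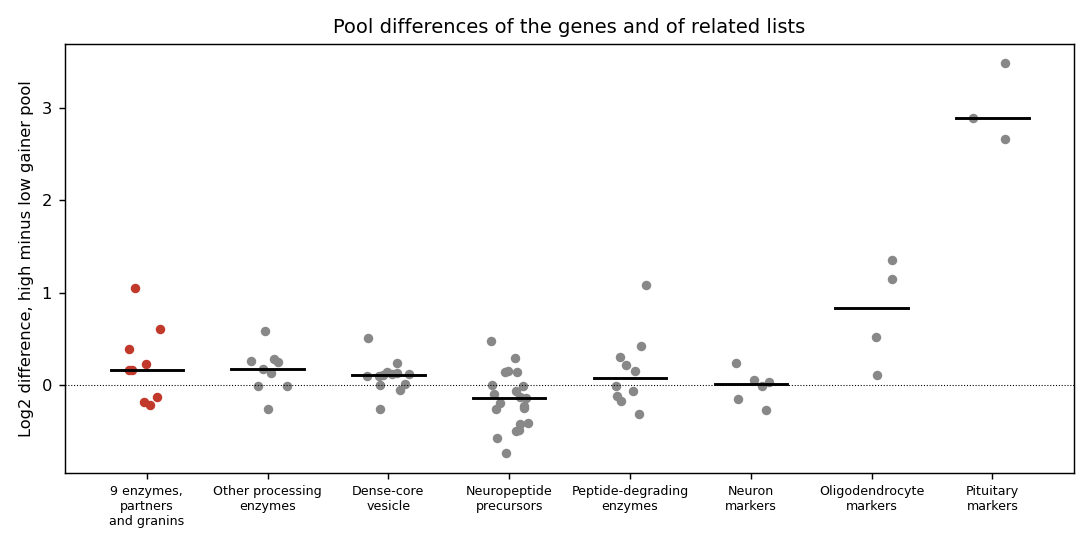
Log2 difference, high minus low gainer pool, 1 point per tested gene (brightest feature of each gene), for the 9 genes (red) and related lists (grey), with black lines at the medians. The red median is 0.16, the neuropeptide precursors lie at -0.14 and the 3 pituitary markers at 2.89.

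Chga, Chgb, Scg2 and Pcsk1 are also made by endocrine cells of the anterior pituitary, some of whose markers differed between the pools. Gh, the growth hormone gene, had 6.79, 6.70, 4.75 and 5.20 on high gainer arrays 1 to 4, against 0.410, 0.549 and 0.585 on low gainer arrays 1, 3 and 4. High gainers exceeded low gainers 11.2-fold for Gh, 7.42-fold for Cga, the common subunit of glycoprotein hormones, and 6.35-fold for Prl, prolactin, and these 3 were the features called among all 11169, with adjusted p by limma of 1.45e-06, 9.94e-04 and 0.00644. Of 14 pituitary markers, 10 had a feature and 3 had a value on all 7 arrays, and the intensities of the list summed to 11.1 to 13.0 in high gainers, against 1.93 to 2.70 in low gainers. Empty cells added nothing to the sum, so the arrays did not all sum the same genes. Gh, Prl and Cga, the 3 called, made up most of it on each high gainer array. Other markers of the list, given here after their values were seen, overlapped or lacked values. Lhb, the luteinizing hormone subunit, had 0.339, 0.416 and 0.381 on high gainer arrays 2, 3 and 4, against 0.364 and 0.365 on low gainer arrays 1 and 4. Lhx3, a pituitary transcription factor, had 0.944, 1.46 and 0.540 on high gainer arrays 2, 3 and 4, against 1.34, 0.648 and 0.515 on low gainer arrays 1, 3 and 4. Tbx19 had a value on 2 and Tshb on 1 of the 7 arrays, and Pitx1 and Ghrhr on none. Pomc, a precursor cut by Pcsk1 in both tissues, had 1.48, 1.14, 0.735 and 0.888 on high gainer arrays 1 to 4, against 0.208 on low gainer array 4 and no value on low gainer arrays 1 and 3. On low gainer array 2, which was set aside, Pomc had 0.849, within the range of the high gainer arrays. By the study's account, qRT-PCR on the pooled RNA also found Pomc higher in high gainers, as on its arrays. Its qRT-PCR on individual high and low gainers, with an outlier removed, did not bear out that difference. Markers of oligodendrocytes, 4 of 6 with a feature and a value on all 7 arrays, summed to 45.7 to 72.9 in high gainers and 11.6 to 40.0 in low gainers. Most of each sum was Mbp, with 43.5, 66.7, 42.1 and 48.5 on high gainer arrays 1 to 4. It had 36.1, 9.68 and 33.3 on low gainer arrays 1, 3 and 4. Of the 4, Mbp and Mag had every high gainer array above every low gainer array, where 2.07% of all features did. Cnp and Mog overlapped, with log2 differences of 0.52 and 0.11. By limma 0 of the 4 were called and 2 had an unadjusted p under 0.05, where 0.0269% and 6.48% of all features did. Neuron markers, 6 of 8 tested with 3 above and 3 below 0, had 0 called by limma and 0 at an unadjusted p under 0.05, against the same shares of all features. They summed to 114.0 to 152.7 in high gainers and 128.6 to 148.3 in low gainers. The part of these markers in the values of Chga, Pcsk1 and the other genes was not tested. In pooled tissue RNA, fewer cells of a type and less RNA per cell cannot be told apart.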

How the data were processed

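Hypothalamus RNA pooled from 20 mice per group was hybridised to 4 arrays for each pool. The authors labelled cRNA with digoxigenin, read 1-colour Applied Biosystems mouse arrays by chemiluminescence and normalized across arrays with a quantile method. The deposited values are normalized intensity on a linear scale, with empty cells whose origin is not given in the sources used here. The number of arrays limits the precision.

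Groups came from the labels. Features were named from the platform annotation, with 1 gene for 14411 of 33012 features, and 14402 of these matched RefSeq by gene identifier. Values were taken to log2, normalized again by quantiles over features with a value on all 7 arrays and tested in R (4.3.3) by limma (3.58.1; lmFit and eBayes with trend), with Benjamini-Hochberg adjustment over all 11169 features and a threshold of 0.05. Low gainer array 2 was left out. The fit was tested on simulated data. The exact permutation test counted all ways to draw 4 of 7 arrays. Promoter sequences are those of RefSeq for GRCm38.p6, matched by symbol for 9 of 10 genes.

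Alternatives were median centring, cyclic loess, deposited values, the brightest 50% of features, a pseudocount of 0.186, array weights, a fit without trend, the replicate number as a block, all 8 arrays, at least 2 values per pool, the methods' t-test and leaving out each array. The methods' t-test stands for the analysis of variance between groups that the methods name, and it was run on the values normalized again, without the methods' filter on signal to noise and quality flags. The genes and lists were chosen with earlier results of these data known. The text names the 10 genes, the 3 features closest in profile to Pcsk1, up to 4 genes of smallest p from each further list, and Gh, Prl, Cga and Pomc. The 3 features closest to Pam and the further pituitary markers were named outside this rule, after their values were seen. The astrocyte list had 2 of 5 genes tested, at a median log2 difference of -0.23, and 0 called.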

Additional observations from a re-analysis of the deposited data

Results flagged for a closer look

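A gap test on log2 intensity (Dixon's, at the 95% level) was run on the 14 sets of 4 arrays of a pool with a value for each array, and marked 3 of them, where chance marks about 1 in 20. Pam on low gainer array 3, at 0.434, lay below low gainer arrays 1, 2 and 4, with a gap of 0.832 of the whole range, barely past the critical value. This mark rests on the value of low gainer array 2, which was set aside in the comparison, since sets of 3 arrays are not tested. Scg5 on low gainer array 2, at 0.837, and Chga on low gainer array 2, at 2.97, lay below the other low gainer arrays with gaps of 0.931 and 0.866 of the range, which adds nothing to the finding that this array stands apart. On that array 5794 of the 11169 features measured on the other 7 arrays had no value, as did 4 of the 9 genes described here.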

How the results depend on the processing

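No alternative called any of the 9 genes at an adjusted p under 0.05. At the methods' unadjusted threshold of p under 0.01 with a 1.5-fold difference, 1 of the 9 passed in each of 2 alternatives. With the replicate number as a block it was Pam (log2 difference 0.88, p 0.0065 by limma), where 74 of 11169 features were higher and 102 lower. Without low gainer array 4 it was Scg2 (log2 difference 0.68, p 8.1e-04 by limma), where 226 of 11228 features were higher and 72 lower. The count of features called, 3 in the main comparison, was 1 with the brightest 50% of features, 1 with all 8 arrays and 0 with the methods' t-test after Benjamini-Hochberg adjustment (477 at an unadjusted p under 0.05, against 724 by limma), and from 2 to 171 when single arrays were left out, the highest without low gainer array 1. The methods' t-test at their threshold of p and fold, without their detection filter, gave 9 higher and 10 lower in high gainers. With the replicate number as a block the count called by limma was 9. In that fit high gainer array 2 had no partner, since low gainer array 2 was left out, and so added nothing to the pool difference. The deviations of same-numbered arrays correlated at -0.20, 0.13 and -0.14 for numbers 1, 3 and 4. Those of differently numbered arrays of the 2 pools correlated at -0.52 to 0.45. So few pairs cannot decide whether the numbers pair the arrays. The median log2 difference over the genes, 0.16, was 0.63 with all 8 arrays, over the 5 genes with a value there, which had a median of 0.23 with 7 arrays, and it lay between -0.014 and 0.26 when single arrays were left out. With all 8 arrays the log2 difference was -0.10 for Chgb, -0.73 for Scg2 and 0.86 for Scg5, opposite to the comparison of 7. When single arrays were left out it ran from -0.050 (without low gainer array 3) to 0.28 for Pcsk1n, from -0.014 (without low gainer array 3) to 0.68 for Scg2, and from -0.30 to 0.013 (without low gainer array 4) for Scg3. Chga, Pam, Pcsk1 and Cpe kept their direction in every alternative that had a value for them. The causes were not tested. No signal over background is given for these arrays here, so the limit for the dim Pcsk1 feature is its nearness to the lowest intensities.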
